A study of Saccharomyces cerevisiae with 2 samples.

Results

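The aminoacyl-tRNA synthetase genes of budding yeast (Saccharomyces cerevisiae) were examined in 2 mRNA-sequencing libraries, 1 from the mutant strain CY3003 (tra1-L3733A) and 1 from CY2706, in which TRA1 is wild type. The genes were taken from a list of 34 names, 21 for the cytosolic enzymes and 13 for the mitochondrial ones, and all 34 were found among the 6603 open reading frames (ORFs) counted. Tra1 belongs to the PIKK family of large proteins and is a subunit of both the SAGA and the NuA4 histone acetyltransferase complex, and the study compared expression between the strain with the substituted Tra1 and the strain with the wild-type protein. Both strains were cultured at 30 °C in YP medium containing glucose (2%) until the A600 was 2.0. The sources used here name no further markers of the strains and do not say how many clones stand behind each. With 1 library per strain, differences have no replicate check, no p-value is given, and every ratio compares these libraries and not the genotypes.

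Aminoacyl-tRNA synthetases join each amino acid to its tRNA, the step that fixes the reading of the genetic code before the ribosome takes part. They fall into 2 structural classes, I and II, with unrelated catalytic folds. Yeast charges tRNAs in the cytosol and, separately, in mitochondria. For most amino acids different nuclear genes encode the enzymes of these compartments, while some genes encode both, among them ALA1, GRS1, HTS1 and VAS1 (for alanine, glycine, histidine and valine). Mitochondria make their glutaminyl-tRNA by a detour, in which a glutamate enzyme charges the tRNA and the GatFAB amidotransferase converts the amino acid. Many cytosolic synthetase genes are known targets of Gcn4, the activator that amino acid starvation induces through uncharged tRNA.

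None of the 34 synthetase genes passed the size rule used here as higher or lower in tra1-L3733A. That rule required at least 20 reads over both libraries, a ratio of tra1-L3733A to TRA1 of at least 1.5 either way and a 95% exact counting interval that excludes 1. It called 8.26% of the 6248 ORFs with enough reads (2.8% higher and 5.46% lower), against 0 of 21 cytosolic and 0 of 13 mitochondrial genes. The ratios of the synthetase genes ran between 0.781 (MSE1) and 1.27 (GUS1), a range that also held 74.6% of all tested ORFs. For all 34 genes the whole interval lay between 0.667 and 1.5, which was the case for 70.5% of tested ORFs. Intervals cover counting error only. Cultures may vary by more, and since reads carried no molecular identifiers, copies of 1 molecule may be counted more than once.

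**Figure D1:**
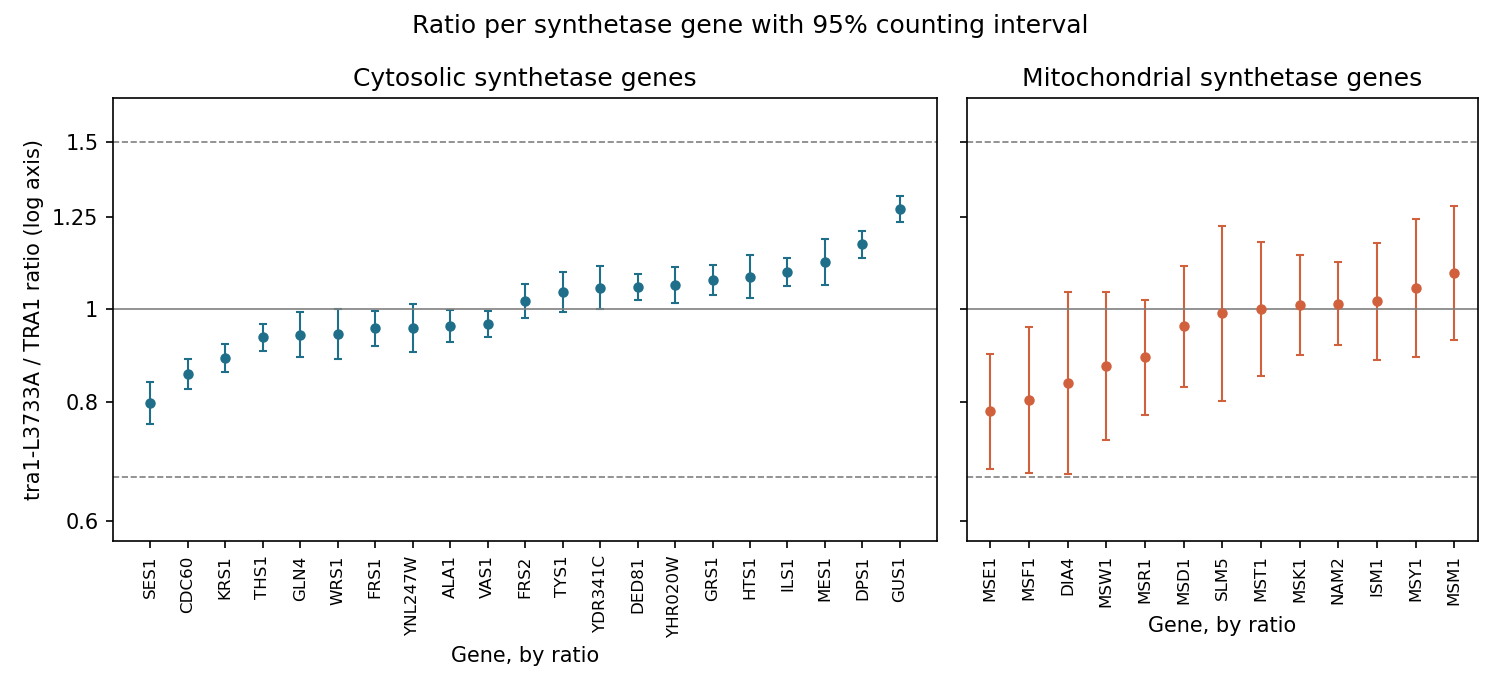
Ratio of tra1-L3733A to TRA1 for each cytosolic (left) and mitochondrial (right) synthetase gene on a log axis, with 95% counting intervals as bars and the size rule's bounds of 0.667 and 1.5 as dashed lines. All 34 intervals lie between the dashed lines, and those of the mitochondrial genes are wider.

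The libraries held 9970836 counts for tra1-L3733A and 11564964 for TRA1. These totals equal 89.4% and 88.9% of the numbers of reads of their sequencing lanes. They are not shares of distinct reads, since a read within overlapping ORFs may be counted for each. TRA1 itself had 5102 reads in tra1-L3733A and 12035 in TRA1, a ratio of 0.526 (0.509 to 0.544). A point mutation need not alter the level of its mRNA, so this does not check the labels. Markers of a cells (STE2, MFA1, MFA2, BAR1 and STE6) summed to 905 counts per 1000000 (CPM) in tra1-L3733A and 935 CPM in TRA1, with none of 5 past the size rule. Those of alpha cells (MF(ALPHA)1, MF(ALPHA)2, SAG1 and STE3) summed to 94.4 and 55.8 CPM. Of these, 3 of 4 passed as higher in tra1-L3733A, beside 2.8% of all tested ORFs. SAG1 made up most of the sums, with 71.5 CPM in tra1-L3733A and 43.5 in TRA1. The other calls rest on few reads, 84 and 32 for MF(ALPHA)1 and 89 and 68 for STE3, which overlaps another listed ORF. The sporulation genes IME1, NDT80 and SPS4 summed to 25.1 and 17.2 CPM, with IME1 higher on 76 and 46 reads. Whether these markers bear on the synthetase genes was not tested.

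Within each library the compartments were separated by level. In reads per kilobase of ORF and per 1000000 of the scaled library size (RPKM), cytosolic genes ran between 94.7 and 472 in tra1-L3733A (median 201) and between 99.1 and 447 in TRA1 (median 230). Mitochondrial genes ran between 10.9 and 29.6 RPKM in tra1-L3733A (median 18.7) and between 11.5 and 29.3 in TRA1 (median 19.5). The levels of the compartments did not overlap in either library, and the cytosolic median was 10.7 times the mitochondrial one in tra1-L3733A and 11.8 times in TRA1. The median over all listed ORFs lay between them, at 32.3 RPKM in tra1-L3733A and 32.8 in TRA1.

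DED81, the asparaginyl-tRNA synthetase gene (YHR019C), lies on chromosome VIII at 141887 to 143551 by the files' own coordinates. It had the highest level per length, with 472 RPKM in tra1-L3733A and 447 in TRA1. DPS1, for aspartate, followed with 440 and 376 RPKM. The lowest cytosolic level was that of YNL247W, the cysteinyl enzyme gene, with 94.7 and 99.1 RPKM. Among mitochondrial genes MSK1, for lysine, was highest with 29.6 RPKM in tra1-L3733A and 29.3 in TRA1. The lowest was DIA4, for serine, with 10.9 RPKM in tra1-L3733A, and SLM5, for asparagine, with 11.5 in TRA1. Asparagine thus had the most abundant cytosolic synthetase mRNA of the list, and the mitochondrial gene for the same amino acid was at the bottom or next to it. Ordered by level, 11 of the 34 genes held the same rank in both libraries and no gene moved by more than 4 ranks.

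**Figure D2:**
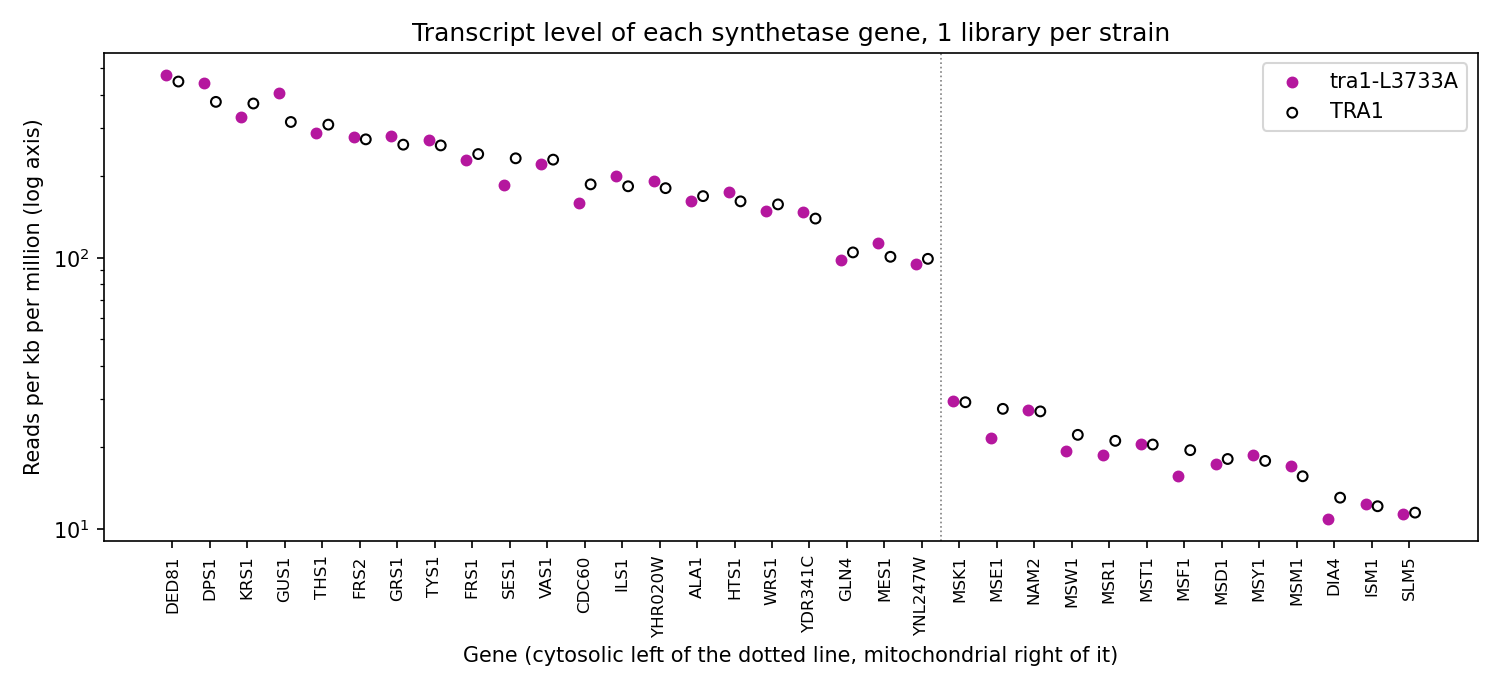
Level of each synthetase gene in RPKM on a log axis, tra1-L3733A as filled points and TRA1 as open circles, with cytosolic genes left of the dotted line and mitochondrial ones right of it. Every cytosolic gene is at 94.7 RPKM or above and every mitochondrial gene at 29.6 or below, in both libraries.

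The DNA upstream of the start codons was searched for 3 short sequence elements known from genes of amino acid supply and ribosome synthesis. Windows of 250 bases upstream were read from the R64 reference genome for genes matched by identifier, and both strands were searched for TGACTC (the core of the Gcn4 element), AAAATTTT (the core of the RRPE element of ribosome biogenesis genes) and GATGAG (the core of the PAC element, known from the same genes). TGACTC was found for 8 of 21 cytosolic genes (38.1%), 0 of 13 mitochondrial genes and 6.24% of all 6007 windows of that length. AAAATTTT was found for 12 of 21 cytosolic genes (57.1%), 0 of 13 mitochondrial genes and 8.66% of all windows. GATGAG was found for 5 of 21 cytosolic genes (23.8%), 1 of 13 mitochondrial genes (7.69%) and 17.0% of all windows, so the cytosolic share was near that of all genes. A match is a description of the letters and not a binding site, and a window without one says nothing of the factor.

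The 8 windows with TGACTC are shown because Gcn4 is the best known activator of these genes. Each is 30 bases, on the gene's strand, with the motif in capitals, which reads GAGTCA where it lies on the other strand.
ALA1 (XV:949139-949168): gattaaggaactTGACTCtttctttcaaga
ILS1 (II:84346-84375): tcgaaacaatgaTGACTCttaagcatgaaa
KRS1 (IV:525294-525323): tgaatgatgaaaTGACTCttaatgaacttc
THS1 (IX:212283-212312): ttactgtttaaaTGACTCttaccttgtgat
VAS1 (VII:672076-672105): atttttttagaaGAGTCAcccatacagcct
YNL247W (XIV:182777-182806): tttcatcgcgaaGAGTCAaaagacattatc
YDR341C (IV:1153809-1153838): aaagtgtctaatGAGTCAgttatttctttc
YHR020W (VIII:143802-143831): taagcgatgcttGAGTCActgaatgtcttg
The motif began between 47 (ALA1) and 204 (THS1) bases upstream of the start codon and lay on the gene's own strand in 4 of the 8.

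The median log2 ratio of the 8 cytosolic genes with TGACTC was -0.05 and that of the 13 without it 0.06. Over all ORFs tested it was -0.02 with the motif and -0.00 without it. For AAAATTTT the median was -0.01 in the 12 cytosolic genes with it and 0.09 in the 9 without it, and for GATGAG it was 0.08 with and -0.01 without. No test of these differences was made.

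Windows with AAAATTTT are shown for SES1, the seryl enzyme gene with the lowest cytosolic ratio, and for FRS1 and FRS2, which encode the subunits of the phenylalanyl enzyme.
SES1 (IV:489350-489379): tggtgcaaaaaAAAATTTTtttgtcatttc
FRS1 (XII:260872-260901): gaaggaaatgaAAAATTTTcaatgtatttc
FRS2 (VI:95230-95259): aacagaaaaaaAAAATTTTtctgtttttct
The motif began 147, 96 and 238 bases upstream of these start codons. Windows with GATGAG, here as CTCATC on the other strand, are shown for GUS1 and MSE1. These genes, for the glutamyl enzymes of the cytosolic and the mitochondrial list, stand at the opposite ends of the ratios.
GUS1 (VII:38844-38873): acattaccagacCTCATCtgttcctaatat
MSE1 (XV:263261-263290): aagacgtttggtCTCATCtagcaaaaatgt

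DED81 and YHR020W, the gene of the prolyl enzyme, are neighbours that are transcribed away from each other, the only adjacent genes of the list. In R64 the start codons are separated by 437 bases (chromosome VIII, 143559 to 143995). The stretch that holds the AAAATTTT found for DED81 and the GAGTCA found for YHR020W, both in capitals, is shown on the forward strand.
VIII:143715-143839: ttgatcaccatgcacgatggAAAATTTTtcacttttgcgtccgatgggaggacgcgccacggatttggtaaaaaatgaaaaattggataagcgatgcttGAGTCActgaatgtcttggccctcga
The AAAATTTT lies outside the window of YHR020W and the GAGTCA outside that of DED81. The ratios of these neighbours were 1.06 (1.02 to 1.09) for DED81, on 7572 reads in tra1-L3733A and 8904 in TRA1, and 1.06 (1.02 to 1.11) for YHR020W, on 3819 and 4468 reads. Their levels per length differed, with 192 RPKM in tra1-L3733A and 181 in TRA1 for YHR020W beside the higher values of DED81 given above.

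Cytosolic genes were spread about evenly around a ratio of 1. Of the 21, 8 had an interval above 1, 8 an interval below 1 and 5 an interval that held 1. That is 38.1% on either side. Among all tested ORFs an interval above 1 was found for 24.2% and an interval below 1 for 25.5%, and among the 1017 tested ORFs at the mean levels of the cytosolic genes for 37.9% and 33.8%. The median log2 ratio was 0.03 for the cytosolic genes, beside -0.00 for all tested ORFs, and the SD across genes was 0.16 beside 0.35. Among the ORFs at these mean levels, 96.9 to 459 RPKM, the median was 0.03 and the SD 0.31. The sign depends on the scaling. With library sizes from total counts the cytosolic median was -0.07 and that of all ORFs -0.10, and the distance between them, 0.03, was the same. Log2 ratios then lay above 0 for 6 cytosolic genes and below for 15, against 11 above and 10 below with TMM scaling (trimmed mean of M-values), the scaling used throughout.

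**Figure D3:**
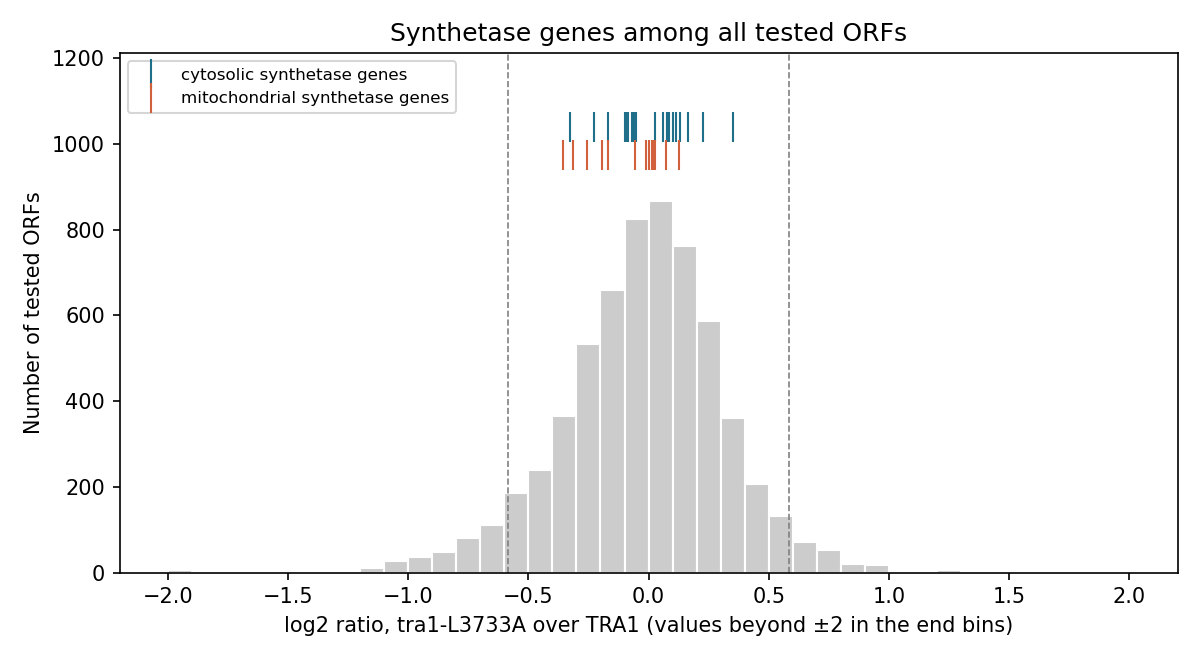
Histogram of the log2 ratio of tra1-L3733A to TRA1 for all 6248 tested ORFs, with each synthetase gene as a tick above it (cytosolic upper row, mitochondrial lower row) and the size rule's bounds as dashed lines. The ticks fall between the dashed lines, while 175 ORFs pass the rule above and 341 below.

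The highest ratio was that of GUS1 (YGL245W, chromosome VII, 39023 to 41149), the glutamyl-tRNA synthetase gene. It had 8280 reads in tra1-L3733A and 8067 in TRA1, or 404 and 317 RPKM, a ratio of 1.27 (1.24 to 1.31) at percentile 89.2 of all tested ORFs. Its level in tra1-L3733A was thus above that in TRA1 by more than counting error, though not by enough to pass the rule. DPS1 (YLL018C, XII, 109901 to 111574) had 7100 reads in tra1-L3733A and 7532 in TRA1, which gives 1.17 (1.13 to 1.21). MES1, for methionine, was at 1.12 (1.06 to 1.18), with 113 RPKM in tra1-L3733A and 101 in TRA1. ILS1, for isoleucine, was at 1.09 (1.06 to 1.13), with 201 RPKM in tra1-L3733A and 184 in TRA1. HTS1, for histidine, was at 1.08 (1.03 to 1.14), with 175 RPKM in tra1-L3733A and 162 in TRA1. GRS1, for glycine, stood next at 1.07 (1.04 to 1.11).

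The lowest cytosolic ratio was that of SES1 (YDR023W, chromosome IV, 489506 to 490894), with 2482 reads in tra1-L3733A and 3869 in TRA1, or 185 and 233 RPKM. That is a ratio of 0.796 (0.757 to 0.838), at percentile 16.2 of all tested ORFs. CDC60 (YPL160W, XVI, 246989 to 250261), for leucine, had 5030 reads in tra1-L3733A and 7307 in TRA1, or 159 and 187 RPKM, a ratio of 0.855 (0.824 to 0.886). KRS1 (YDR037W, IV, 525438 to 527213), for lysine, had 5643 and 7880 reads, or 330 and 371 RPKM, and was at 0.889 (0.859 to 0.920). These genes had intervals below 1 but none was near the bound of 0.667. THS1, for threonine, was at 0.935 (0.904 to 0.966), with 290 RPKM in tra1-L3733A and 310 in TRA1. GLN4, for glutamine, was at 0.940 (0.890 to 0.993), with 98.4 RPKM in tra1-L3733A and 105 in TRA1.

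The other cytosolic genes lay between these. WRS1 (tryptophan), FRS1, YNL247W, ALA1 and VAS1 had ratios between 0.942 and 0.965, and FRS2, TYS1 (tyrosine) and YDR341C (arginine) between 1.02 and 1.05. The intervals of WRS1, YNL247W, FRS2, TYS1 and YDR341C held 1. With a smaller bound, a ratio of at least 5 to 4 in place of 1.5, GUS1 passed as higher and SES1 and the mitochondrial MSE1 as lower, which is 8.82% of the 34 genes beside 25.2% of all tested ORFs. This bound was applied with TMM scaling and summed directions only. GUS1 fell short of it in forward reads alone (1.249) and with total counts (1.19). MSE1 had an interval that held 1 in reverse reads alone. With total counts the log2 ratio of CDC60 was -0.3247, past the lower bound.

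Some of these genes encode products that work together. FRS1 and FRS2 encode the subunits of 1 enzyme and had 230 and 279 RPKM in tra1-L3733A, against 241 and 274 RPKM in TRA1. Their ratios were 0.955 (0.916 to 0.995) and 1.02 (0.978 to 1.06), with overlapping intervals. The products of GUS1 and MES1 bind Arc1, a tRNA-binding cofactor, and ARC1 had 438 RPKM in tra1-L3733A and 424 in TRA1, a ratio of 1.03 (0.994 to 1.07). Of that trio GUS1 and MES1 had intervals above 1 and ARC1 an interval that held 1.

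ALA1, GRS1, HTS1 and VAS1, each known to serve both compartments, stood among the cytosolic genes in level. These 4 ran between 162 and 281 RPKM in tra1-L3733A and between 162 and 261 in TRA1. Their ratios were 0.961 for ALA1, 0.965 for VAS1, 1.07 for GRS1 and 1.08 for HTS1, and their median log2 ratio was 0.03, equal at this rounding to the 0.03 of the other 17 genes of the cytosolic list. By structural class the cytosolic medians were 0.00 for the 10 class I genes and 0.03 for the 11 class II genes, and the mitochondrial ones 0.02 for 7 and -0.04 for 6. Each class held members on both sides of 1 in either compartment.

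Mitochondrial genes also centred on a ratio of 1. Their median log2 ratio was -0.01, with 6 values above 0 and 7 below, and the SD across genes was 0.16. The 1878 tested ORFs at the mean levels of these genes, 11.4 to 29.5 RPKM, had a median of -0.01 and an SD of 0.34. Of 13 intervals, 0 lay above 1, 2 below (15.4%) and 11 held 1. Among the ORFs at these mean levels 16.1% had an interval above 1 and 22.4% an interval below 1. At 141 to 711 reads per gene in tra1-L3733A and 203 to 871 in TRA1, the upper bound of an interval was 1.22 to 1.55 times the lower, beside 1.06 to 1.13 times for the cytosolic genes, so differences of the size seen between most cytosolic genes were not detectable here. With scaling by total counts 1 mitochondrial log2 ratio lay above 0 and 12 below, and 10 of 13 intervals lay within the bounds of 0.667 and 1.5.

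The lowest ratio of all belonged to MSE1 (YOL033W, chromosome XV, 263476 to 265086), the mitochondrial glutamyl enzyme gene. It had 336 reads in tra1-L3733A and 534 in TRA1, or 21.6 and 27.7 RPKM, a ratio of 0.781 (0.679 to 0.897). MSF1 (YPR047W, XVI, 657526 to 658935), for phenylalanine, had 213 and 329 reads, or 15.7 RPKM in tra1-L3733A and 19.5 in TRA1, a ratio of 0.804 (0.673 to 0.958). These were the mitochondrial genes with intervals below 1. DIA4 was at 0.837 (0.672 to 1.04) on 141 reads in tra1-L3733A and 209 in TRA1. MSW1, for tryptophan, was at 0.873 (0.729 to 1.04) on 213 and 303 reads. MSR1, for arginine, was at 0.890 (0.774 to 1.02) on 350 and 488 reads.

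At the other end MSM1, for methionine, was at 1.09 (0.927 to 1.28) on 284 reads in tra1-L3733A and 323 in TRA1. MSY1, for tyrosine, was at 1.05 (0.891 to 1.24) on 267 reads in tra1-L3733A and 315 in TRA1. ISM1, for isoleucine, was at 1.02 (0.884 to 1.17) on 358 and 436 reads. NAM2, a leucyl enzyme also known for its part in splicing mitochondrial introns, was at 1.01 (0.916 to 1.12) on 711 and 871 reads. MSK1 was at 1.01 (0.895 to 1.14) on 494 and 607 reads. The interval of each of these held 1, as did those of MSD1 (aspartate) at 0.960, SLM5 at 0.991 and MST1 (threonine) at 1.0004.

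Cytosolic and mitochondrial genes for the same amino acid were set side by side in 14 pairs, which cover 13 mitochondrial genes because MSF1 was paired with both FRS1 and FRS2. The cytosolic gene had the larger ratio in 9 pairs and the smaller in 5. The intervals overlapped in 10 pairs. They did not overlap for glutamate, where GUS1 was at 1.27 (1.24 to 1.31) and MSE1 at 0.781 (0.679 to 0.897), a difference of 0.71 on the log2 scale. The other such pairs were DPS1 at 1.17 (1.13 to 1.21) with MSD1 at 0.960 (0.829 to 1.11), FRS2 at 1.02 (0.978 to 1.06) with MSF1 at 0.804 (0.673 to 0.958), and CDC60 at 0.855 (0.824 to 0.886) with NAM2 at 1.01 (0.916 to 1.12). In the leucine pair the mitochondrial gene had the larger ratio, in the rest the cytosolic one. How often intervals of unrelated ORFs at these levels would not overlap was not computed, so the count of pairs describes these genes only. Log2 ratios of all tested ORFs at the mean levels of the cytosolic and the mitochondrial genes had SDs of 0.31 and 0.34.

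Across the 14 pairs, which share both libraries, the log2 ratios of the partners had a Pearson correlation of -0.01 and a Spearman correlation of 0.02. Counting error was large for the mitochondrial partners, of which 11 of 13 had intervals that held 1, and MSF1 enters with both FRS1 and FRS2. Values near 0 therefore do not show that partners varied independently. The pairs differed widely in level. The cytosolic gene had 5.80 (leucine) to 41.5 (asparagine) times the RPKM of its mitochondrial partner in tra1-L3733A, and 6.45 (methionine) to 39.0 (asparagine) times in TRA1. The median log2 ratio of the cytosolic genes exceeded that of the mitochondrial ones by 0.04, a difference that was not tested. Its size depended on the processing. It was 0.0009 without overlapping ORFs and 0.0075 with the GC trend removed, but 0.0828 in forward and 0.0855 in reverse reads alone. Summed over genes, the ratio was 1.02 (1.01 to 1.03) for the cytosolic genes, or 0.950 with scaling by total counts, and 0.953 (0.915 to 0.992) for the mitochondrial ones, or 0.890 with scaling by total counts. Summed over all listed ORFs with TMM scaling it was 1.07. That sum is the library total, so this value is set by the scaling factors and is not a measured background.

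**Figure D4:**
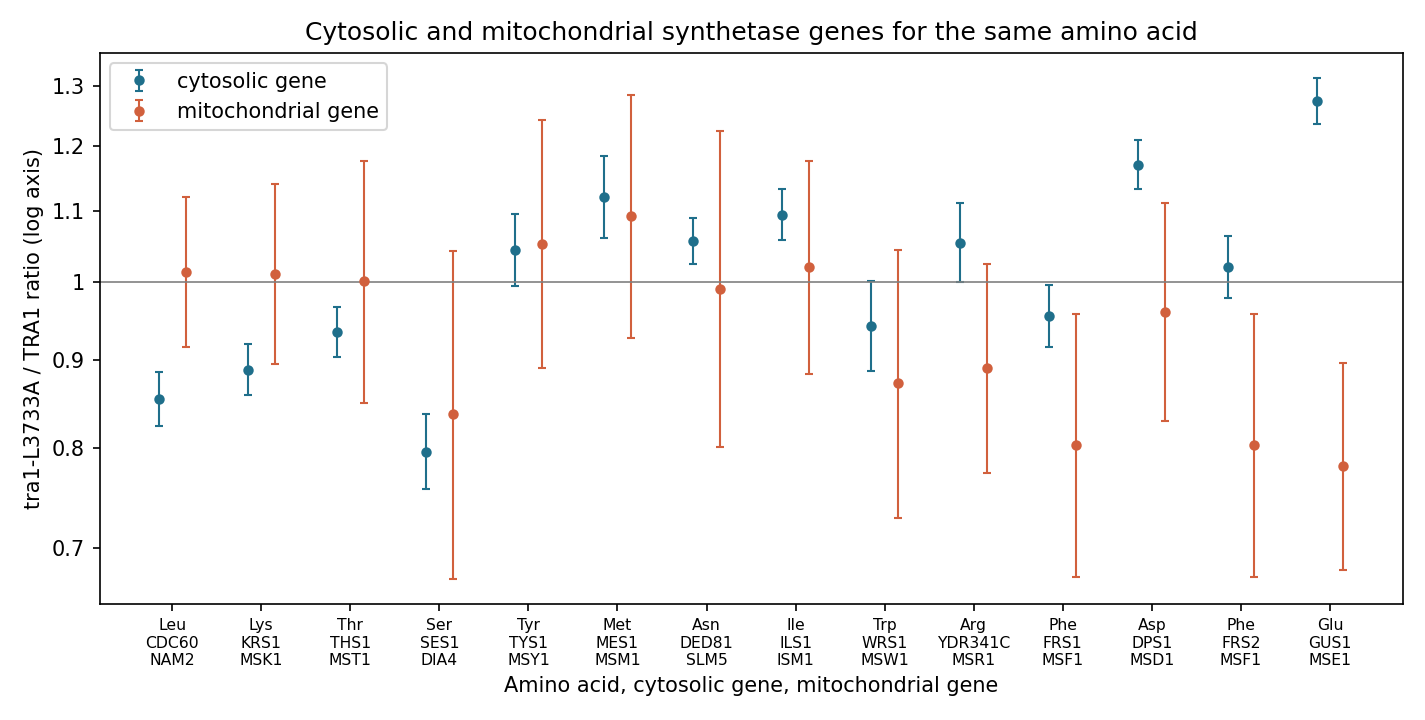
Ratio of tra1-L3733A to TRA1 on a log axis for the cytosolic and the mitochondrial gene of each amino acid, ordered by the difference within the pair, with 95% counting intervals. The intervals separate for leucine at the left and for aspartate, phenylalanine (FRS2) and glutamate at the right.

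Each library gives its counts in 2 read directions, which allows the ratio to be computed from separate reads of the same library. GUS1 was at 1.249 (1.195 to 1.306) in forward and 1.30 (1.245 to 1.357) in reverse reads, and SES1 at 0.799 (0.744 to 0.858) and 0.795 (0.739 to 0.854). MSE1 was at 0.688 (0.560 to 0.843) in forward reads and 0.878 (0.724 to 1.06) in reverse reads, so its interval held 1 in the reverse reads. The forward and reverse intervals overlapped for all 34 genes. They did not for 2.50% of all tested ORFs, a share too small for 34 genes to stand apart from it. Across genes the log2 ratios of the directions had a Pearson correlation of 0.86 for the 21 cytosolic and 0.51 for the 13 mitochondrial genes. Both directions come from the same RNA, so this bears on counting and not on cultures.

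**Figure D5:**
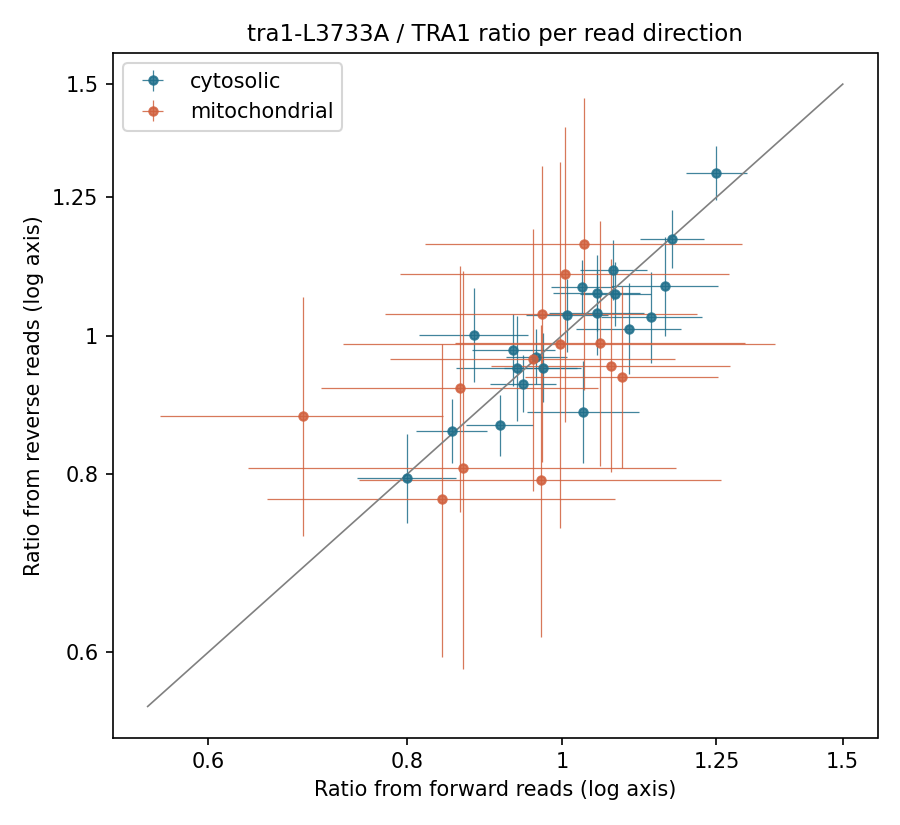
Ratio of tra1-L3733A to TRA1 from reverse reads against that from forward reads, on log axes, 1 point per synthetase gene with 95% counting intervals and the line of equality. Cytosolic genes lie close to the line, and mitochondrial genes, with fewer reads, scatter more widely around it.

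Possible sharing of reads between genes was looked for by sequence and by overlap. No stretch of 35 bases, the read length, in the R64 coding sequence of any of the 34 genes occurs elsewhere in the R64 genome, the similar genes GRS1 and GRS2 included. Only exact copies were searched, so reads placed with mismatches are not covered. In the files 5 of the 34 overlap another listed ORF, ALA1 with YOR335W-A, GLN4 with YOR169C, GRS1 with YBR121C-A, ILS1 with YBL077W and MES1 with YGR265W, by 81 to 357 bases. The most reads of such a partner were the 597 in tra1-L3733A and 771 in TRA1 of YBL077W, and those reads may count for ILS1 too.

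Genes around the synthetases were described with 4 further lists. Of their 24 genes, 0 passed the size rule as higher and 2 as lower in tra1-L3733A, which is 8.33% beside the 8.26% of all tested ORFs. Of 9 partners and relatives, FMT1, which formylates the mitochondrial initiator methionyl-tRNA, was counted 56 times in tra1-L3733A and 110 times in TRA1, a ratio of 0.632 (0.450 to 0.880), a call lost in reverse reads alone. PET112 and HER2, subunits of GatFAB, were at 1.16 (0.972 to 1.39) and 0.994 (0.813 to 1.21), and GTF1, the remaining subunit, at 0.911 (0.765 to 1.08). The list's median log2 ratio was -0.01. GRS2, a relative of GRS1, had 19.6 RPKM in tra1-L3733A and 17.7 in TRA1, far below GRS1, and a ratio of 1.10 (0.952 to 1.28). The median for the 8 genes of tRNA maturation and export was -0.16, but -0.0048 in forward reads alone and -0.26 in reverse reads alone. Of these SEN34, of the tRNA splicing endonuclease, had 141 reads in tra1-L3733A against 263 in TRA1, which is a ratio of 0.666 (0.538 to 0.820), a call at the bound that did not hold in forward reads alone, nor once a trend with ORF length or with GC content was taken out. CCA1, which adds the CCA end to tRNAs, was at 1.29 (1.16 to 1.42).

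The genes of the response to uncharged tRNA had 0 of 4 past the rule. GCN4 mRNA had 18979 reads in tra1-L3733A and 19246 in TRA1, or 2328 and 1901 RPKM, a ratio of 1.22 (1.200 to 1.249). GCN2, the kinase that senses uncharged tRNA, was at 1.04 (0.959 to 1.13), GCN1 at 1.03 (0.9998 to 1.059) and GCN20 at 1.11 (1.05 to 1.18), so all 4 log2 ratios lay above 0 with a median of 0.11. With scaling by total counts that median was 0.01, with 2 values above 0 and 2 below. Gcn4 is known to be controlled at translation, which counts of mRNA do not measure. Of 3 genes of mitochondrial tRNA modification 0 passed, with MSS1 highest at 1.16 (0.967 to 1.39), SLM3 lowest at 0.949 (0.766 to 1.18) and MTO1 at 1.07 (0.944 to 1.21).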

How the data were processed

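Per the file headers, the deposited files give raw read counts for each ORF in 2 columns, fr and rr. No source used here defines them, and they were read as forward and reverse read directions. A deposited coverage signal equals summed reads over ORF span in all 13206 entries (tolerance 1e-06) and was used for that check only. Reads were 35 nucleotides, and were aligned with Novoalign, as far as the submitters' processing notes name a tool. Its version, the build and the annotation are not given there. The start of 3 of 34 genes equals that in R64, so coordinates are the files' own except for sequences, which come from R64 (NCBI RefSeq) by R64's annotation.

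Directions were summed here and libraries scaled by TMM (edgeR 4.0.16 under R 4.3.3), the factor being 0.967 for tra1-L3733A and 1.03 for TRA1. The quasi-likelihood test of edgeR has no residual degrees of freedom when each strain has 1 library, so ratios have exact (Clopper-Pearson) intervals, computed with scipy 1.17.1. Log2 ratios had 0.5 reads added. The interval and the size rule were tested on simulated data. Genes and lists were chosen with earlier results of these data known. Named genes are those past the rule, the 5 highest and 5 lowest ratios per compartment, pair partners, and for the further lists those past the rule and others at the ends. Alternatives were scaling by total counts, lane reads or DESeq2 1.42.0 size factors, read minimums, single directions, a fold of 5 to 4, removal of length or GC trends, and overlapping ORFs left out.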

Additional observations from a re-analysis of the deposited data

How the results depend on the processing

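No synthetase gene passed the size rule with a fold of 1.5 under any of the other 10 settings. Among these, the read minimums and the removal of overlapping ORFs could not add a call, because all 34 genes had already been tested. With a fold of 5 to 4, 1 cytosolic gene passed as higher and 1 as lower, 1 mitochondrial gene passed as lower, 670 of all ORFs passed as higher and 902 as lower, 2 genes of the partner list passed as lower, and 1 gene of tRNA maturation passed as higher and 3 as lower. Scaling by total counts gave 91 ORFs higher and 515 lower, a cytosolic median of -0.0696 and a median of 0.0077 for the uncharged tRNA genes. Scaling by lane reads gave 98 ORFs higher and 500 lower, with medians of -0.0612 and 0.0161. These scalings shift all ORFs alike, by a median of -0.10 or -0.09, and 10 of the 34 log2 ratios changed sign, so no direction of a synthetase gene near 1 is firm. In forward reads alone 0 genes of tRNA maturation were lower and the median of the uncharged tRNA genes was 0.20. In reverse reads alone 0 partner genes and 2 of tRNA maturation were lower. With the length or the GC trend removed 0 genes of tRNA maturation were lower. The causes were not tested. With DESeq2 size factors the numbers of genes called in the synthetase groups and the further lists did not change. Nor did they with either read minimum or without overlapping ORFs, but there no change was possible. Every gene of these groups exceeded both minimums, and the called genes FMT1 and SEN34 overlap no listed ORF. Without overlapping ORFs the cytosolic median was -0.0117, beside 0.0284 with them. That of mitochondrial tRNA modification was 0.2163, beside 0.0985. No paired analysis was possible because each strain has 1 library, and no library could be left out.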
